A study of Rattus norvegicus with 12 samples.

Results

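The 36 collagen genes measured here, of 18166 named genes, were followed in primary rat cultures given SIN-1 (3-morpholinosydnonimine). SIN-1 breaks down in medium to superoxide and nitric oxide, which combine to the oxidant peroxynitrite. Members were all genes whose array symbol has the form Col, a number, a and a number, taken from probes that carry a single symbol. One-colour whole-transcript arrays measured RNA from 4 groups of 3 samples labelled as wild-type rat cardiomyocytes: a control and SIN-1 for 70 min, 4 h or 8 h. All groups were grown in the same DMEM/F12 medium with foetal bovine and horse serum. How long the control was cultured, whether it had a vehicle, the SIN-1 dose and the animals' age were not stated in the labels, and all 3 treated times were compared with the same 3 control arrays. The triplicates are described as biological, with nothing further on separate cultures, so p-values measure the spread between these samples.

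Collagens are trimers of chains wound into a triple helix, and the classes differ in what they build outside the cell. Fibrillar collagens form the cables of the matrix, FACIT collagens sit on the surface of those fibrils, type IV chains form the sheet of the basement membrane, type VI forms beaded filaments, and the short-chain type VIII forms lattices in vessel walls and other membranes. In the heart, fibroblasts make most of the fibrillar collagen, while each cardiomyocyte is wrapped in a basement membrane of type IV collagen and laminin. New chains are hydroxylated and folded in the endoplasmic reticulum, cut by procollagen proteinases after export and crosslinked by lysyl oxidases, and transforming growth factor beta (TGF-beta) is the best known inducer of fibrillar collagen genes.

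By class, 11 of the 36 genes were fibrillar, 7 FACIT, 5 basement membrane, 3 beaded filament, 3 short-chain network, 3 transmembrane and 2 multiplexin, with 1 anchoring fibril gene and 1 other. The 9 genes Col4a6, Col6a1, Col6a4, Col6a5, Col9a3, Col21a1, Col22a1, Col25a1 and Col28a1 were not analysed here. Each gene was represented by 1 probe, apart from Col5a1 with 2, of which the brighter was used. Values are log2 expression, and no detection calls were used. The mean over 12 arrays lay at or above the median of all gene means, 5.75, for 23 collagen genes, and below it for 13.

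The cultures' label was set against marker genes. Of 11 cardiomyocyte markers measured, Pln, Tnnc1 and Tnnt2 had means above the median of all genes (7.94, 7.14 and 5.84), and the other 8, Myh6, Myh7, Ryr2, Actn2, Mybpc3, Ttn, Nppa and Tnni3, below it. Of these, Myh6, Myh7 and Ryr2, at 3.78, 3.57 and 4.20, lay below 4.33, the median of the unnamed probes. Averaged over the 11 markers, control arrays read 5.09 to 5.17. The 12 fibroblast markers other than collagens averaged 7.96 to 8.03 in the control arrays, with 4 below the gene median and 1, Fap, below that of the unnamed probes. The 8 smooth muscle and pericyte markers averaged 7.89 to 8.03 there, the 7 endothelial markers 4.64 to 4.76 and the 10 macrophage and leukocyte markers 4.60 to 4.77. Levels of different genes also depend on their probes, so these values put no order on the cell types, and the cultures are called here by their label only. Correlations between arrays of a group ran from 0.9906 to 0.995 over genes. In their median over all probes 3 arrays stood apart, 70 min replicates 2 and 3 and 4 h replicate 3, at 5.11, 5.12 and 5.09 against 4.98 to 5.05 in the other arrays.

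Promoter windows of 5 collagen genes are shown because their chains belong to the same collagen types and their transcripts are compared below: the type VIII pair, and 3 of the type IV chains. Each window is the RefSeq sequence of assembly GRCr8 from 250 bases before to 50 bases after the annotated start, and 30 of the 36 genes had one (not Col1a1, Col2a1, Col3a1, Col6a2, Col12a1 or Col14a1). Capitals mark matches, on either strand, to the GC box GGGCGG or the CCAAT box.
Col8a1 (chr11:56246532-56246831, plus strand): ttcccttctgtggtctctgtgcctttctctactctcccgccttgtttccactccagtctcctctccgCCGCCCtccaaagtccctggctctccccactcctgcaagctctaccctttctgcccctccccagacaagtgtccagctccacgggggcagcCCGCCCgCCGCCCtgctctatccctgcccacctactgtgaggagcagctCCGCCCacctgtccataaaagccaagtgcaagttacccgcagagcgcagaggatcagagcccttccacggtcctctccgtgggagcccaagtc
Col8a2 (chr5:143870519-143870818, plus strand): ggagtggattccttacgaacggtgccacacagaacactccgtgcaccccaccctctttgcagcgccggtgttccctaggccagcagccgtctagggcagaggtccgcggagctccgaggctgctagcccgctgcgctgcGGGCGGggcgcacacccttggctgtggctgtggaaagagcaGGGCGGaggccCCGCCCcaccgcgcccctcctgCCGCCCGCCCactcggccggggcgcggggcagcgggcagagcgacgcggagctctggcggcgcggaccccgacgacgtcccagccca
Col4a1 (chr16:84885347-84885646, plus strand): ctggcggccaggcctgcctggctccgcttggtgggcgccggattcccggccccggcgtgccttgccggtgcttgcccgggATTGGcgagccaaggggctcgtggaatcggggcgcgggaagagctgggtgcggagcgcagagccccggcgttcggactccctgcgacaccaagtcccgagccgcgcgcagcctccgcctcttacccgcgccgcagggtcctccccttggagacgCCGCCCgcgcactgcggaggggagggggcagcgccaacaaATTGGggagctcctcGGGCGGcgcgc
Col4a2 (chr16:84885471-84885770, minus strand): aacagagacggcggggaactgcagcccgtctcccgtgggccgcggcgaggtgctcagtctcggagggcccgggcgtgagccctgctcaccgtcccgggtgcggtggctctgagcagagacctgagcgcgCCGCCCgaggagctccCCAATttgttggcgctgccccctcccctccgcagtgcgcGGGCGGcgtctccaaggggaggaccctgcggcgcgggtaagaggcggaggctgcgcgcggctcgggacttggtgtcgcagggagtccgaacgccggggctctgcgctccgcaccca
Col4a5 (chrX:109907109-109907408, plus strand): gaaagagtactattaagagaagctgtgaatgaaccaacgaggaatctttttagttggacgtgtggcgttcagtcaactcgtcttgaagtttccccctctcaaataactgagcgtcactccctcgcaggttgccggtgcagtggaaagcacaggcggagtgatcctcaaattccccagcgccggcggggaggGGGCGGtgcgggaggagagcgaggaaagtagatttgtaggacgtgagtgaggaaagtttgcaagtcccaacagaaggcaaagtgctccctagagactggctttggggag

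Both type VIII windows were rich in GC boxes, with 4 matches in Col8a1 and 5 in Col8a2, the last pair in Col8a2 overlapping. The Col4a1 and Col4a2 genes lie head to head: their annotated starts are 77 bases apart on opposite strands, and their windows share 176 bases. The Col4a5 window on chromosome X held 1 GC box and no CCAAT box. Over the 30 collagen genes with a window, a GC box was found in 18, while 33.1% of all 33469 windows held one. CCAAT was found in 8 of the 30 genes (37.5% of all windows), TATAAA in 4 (14.2%), the antioxidant response element core TGACNNNGC in 5 (12.1%) and the AP-1 site TGANTCA in 0 (7.33%). The median GC content was 59.8% in the collagen windows and 51.7% in all windows. These matches describe letters in a window and were not tested against expression.

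After 70 min of SIN-1, 7 of the 36 collagen genes passed the test, an adjusted p under 0.05 by limma's moderated test with Benjamini-Hochberg adjustment over all genes. Col3a1, Col5a2, Col11a1, Col12a1, Col14a1 and Col4a5 fell, which made 6, and Col8a1 alone rose. The falls ran from 0.19 to 0.45 on the log2 scale, so that no collagen gene changed by 1.5-fold. The background was large at this time: 14.6% of all genes passed, 6.76% higher and 7.81% lower, against 19.4% of the collagens. All 7 called collagens were among the 23 at or above the median of all gene means. Of the 9083 genes at or above that median, 1030 were higher and 1260 lower, and of the 9083 below it, 198 and 159. Treated and control values did not overlap for 13 of 36 collagens (36.1%) and for 31.8% of all genes. On the same arrays the 12 fibroblast markers averaged 7.66 to 7.78, below all control arrays (7.96 to 8.03). Of their differences 11 were below 0 and 4 passed, the largest being -1.42 in Lum and -1.05 in Dcn. The 3 brightest, Vim, Postn and S100a4, read 13.12, 11.68 and 11.11 in control and 13.11, 11.62 and 11.11 at 70 min. In RNA from whole cultures, fewer cells of a type and less RNA per cell cannot be told apart. The markers' part in the collagen differences was not tested. The median difference was 0.03 over the collagens and 0.03 over all genes. Its sign depended on the scaling: both were -0.02 after each array was centred on its own median, and the collagen median was -0.07 against 0.01 over all genes with array medians as covariate. Without the 3 arrays that stood apart it was -0.07 against -0.00.

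Each call was refitted under 17 alternatives to the settings or the arrays used, and a 1.5-fold minimum, which none of the 7 calls reaches, is counted apart from these. One of the 17 left out the 3 arrays that stood apart. It leaves 1 array at 70 min, which is assumed to vary like the arrays of the other groups. There 4 of the 7 values passed: Col3a1 at -0.38, Col14a1 at -0.42, Col12a1 at -0.31 and Col8a1 at 0.33 (limma adjusted p = 0.00128, 0.0101, 0.0479 and 0.0399). Col4a5, Col5a2 and Col11a1 did not pass there, at -0.34, -0.18 and -0.17 (0.0712, 0.174 and 0.504).

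**Figure D1:**
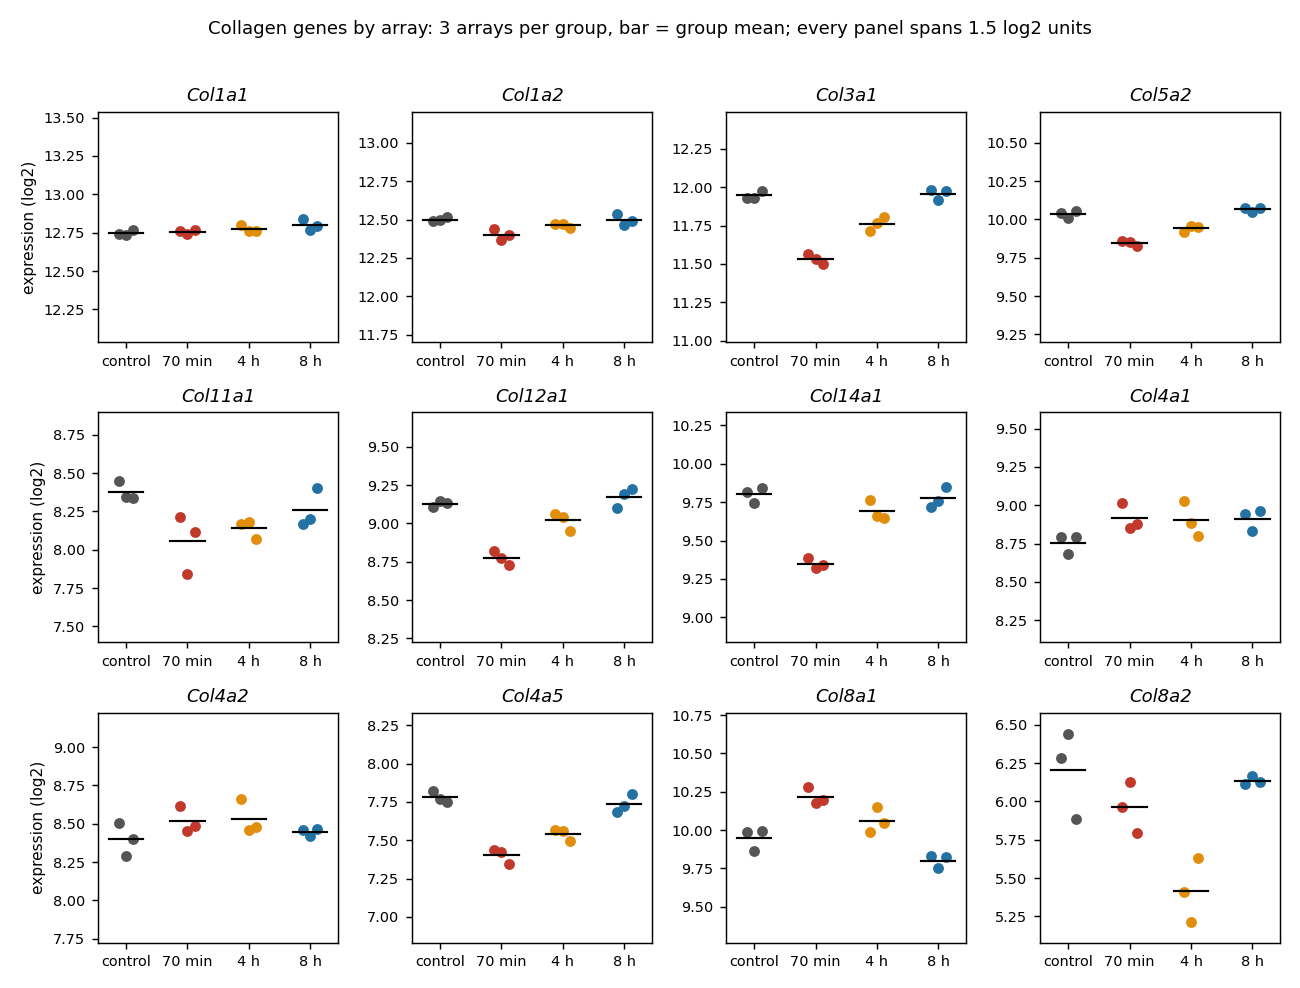
Log2 expression of 12 collagen genes on every array, in control cultures and after 70 min, 4 h and 8 h of SIN-1; points are arrays, 3 per group, bars are group means, and each vertical axis spans 1.5 log2 units. Col3a1, Col12a1, Col14a1 and Col4a5 are lowest at 70 min, Col8a1 is highest at 70 min, Col8a2 is lowest at 4 h, and the Col1a1 arrays all lie between 12.74 and 12.84.

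Among the fibrillar collagens, Col3a1, the single chain of type III collagen, changed most clearly. Col3a1 read 11.93, 11.93 and 11.98 in the control arrays and 11.56, 11.53 and 11.50 at 70 min. At 4 h it read 11.72, 11.77 and 11.81, and at 8 h 11.98, 11.92 and 11.97. The 70 min arrays were the lowest, the 4 h arrays lay between, and the 8 h arrays overlapped the control. Col3a1 fell by 0.41 ± 0.04 (SE) at 70 min, 1.33-fold (limma adjusted p = 1.31e-06). At 4 h it fell by 0.18 ± 0.04 (adjusted p = 0.0108), a call that ended when control replicate 3 (adjusted p = 0.0607) or 4 h replicate 1 (0.0528) was left out, when arrays were centred on their medians (0.138), and when the prior variance was fitted with no trend (0.264). At 8 h the difference was 0.01, with a 95% interval from -0.07 to 0.09.

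The type I chains, which form the bulk of cardiac fibrils, did not pass in any comparison. Col1a1 read 12.74, 12.74 and 12.76 in control, 12.76, 12.74 and 12.76 at 70 min, 12.80, 12.76 and 12.76 at 4 h and 12.84, 12.77 and 12.79 at 8 h. Its difference at 70 min was 0.01 with a 95% interval from -0.06 to 0.07, so that the interval does not reach the fall seen in Col3a1. Col1a2 read 12.49, 12.50 and 12.51 in control against 12.44, 12.36 and 12.40 at 70 min. All 3 treated values were below the control values, but the difference of -0.10 ± 0.03 did not pass (limma adjusted p = 0.0553). It passed under 5 of the 17 alternative fits, over which the difference ran from -0.15 to -0.03. They were the fit without 70 min replicate 1 (0.0408) and those with robust moderation (0.0433) or array weights (0.0285). The others were the replicate number as a block (0.0463) and the brighter genes alone (0.0232). The fit without replicate 1 kept 70 min replicates 2 and 3, which stood apart in their medians.

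Type V collagen starts new fibrils and sets their width. Col5a2 read 10.04, 10.01 and 10.05 in control and 9.86, 9.86 and 9.82 at 70 min, with no overlap. It fell by 0.19 ± 0.05 (limma adjusted p = 0.0105), a call that ended without the trend (0.0988). Its partner chain Col5a1 read 8.90, 8.89 and 8.97 in control and 8.99, 9.00 and 9.00 at 70 min, a difference of 0.07 ± 0.06 that did not pass (adjusted p = 0.464). The dimmer Col5a1 probe differed by 0.20 at 70 min and at 4 h and by -0.04 at 8 h, against 0.07, 0.01 and 0.02 for the probe used, so the probes did not show the same size of difference. Col5a3, the remaining type V chain, differed by 0.16 ± 0.10 at 70 min (adjusted p = 0.325).

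Col11a1, a type XI chain that can join type V fibrils, read 8.45, 8.35 and 8.34 in control and 8.21, 7.84 and 8.11 at 70 min. The treated arrays were lower without overlap, with replicate 2 the lowest. Col11a1 fell by 0.32 ± 0.09 (limma adjusted p = 0.0274). The call ended without control replicate 1 (0.117), 2 (0.0587) or 3 (0.0572), without 70 min replicate 2 (0.152), without the trend (0.0688) and with array medians as covariate (0.104). Col11a2, its partner chain, read 5.65, 6.21 and 6.15 at 70 min against 5.40, 5.91 and 5.48 in control, where the groups overlapped, and its difference of 0.41 ± 0.17 did not pass (adjusted p = 0.121), though it did without 70 min replicate 1 (0.0215) and with array weights (0.0277). The fit without replicate 1 kept 70 min replicates 2 and 3, which stood apart in their medians. Without the 3 arrays that stood apart, with 1 array left at 70 min, the Col11a2 difference was 0.06. The other fibrillar genes, Col2a1, Col24a1 and Col27a1, differed by 0.08, 0.17 and -0.17 at 70 min and passed in none of the comparisons.

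The FACIT genes Col14a1 and Col12a1, whose products coat the surface of collagen fibrils, also fell at 70 min. Col14a1 read 9.82, 9.74 and 9.85 in control, 9.39, 9.32 and 9.34 at 70 min, 9.76, 9.66 and 9.65 at 4 h and 9.72, 9.76 and 9.85 at 8 h. The 70 min arrays stood below all others. Col14a1 fell by 0.45 ± 0.06 at 70 min, 1.37-fold (limma adjusted p = 3.75e-05). Its differences at 4 h and 8 h were -0.11 ± 0.06 and -0.03 ± 0.06, and neither passed (adjusted p = 0.383 and 0.994).

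Col12a1 read 9.11, 9.14 and 9.13 in control, 8.82, 8.77 and 8.73 at 70 min, 9.06, 9.04 and 8.95 at 4 h and 9.10, 9.19 and 9.22 at 8 h. Again only the 70 min arrays stood well apart. Col12a1 fell by 0.35 ± 0.06, 1.28-fold (limma adjusted p = 0.000631). At 4 h all arrays were still below control, by 0.11 ± 0.06 on average, which did not pass (adjusted p = 0.439). The 70 min calls of Col3a1, Col14a1 and Col12a1 held under each of the 17 alternative fits. The other 5 FACIT genes, Col9a1, Col9a2, Col16a1, Col19a1 and Col20a1, differed by -0.23 to 0.13 at 70 min and none passed.

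In the basement membrane class, Col4a5 passed and the main pair did not. Col4a5, a chain of the specialised networks mutated in Alport syndrome, read 7.82, 7.77 and 7.75 in control and 7.44, 7.42 and 7.34 at 70 min. It read 7.57, 7.56 and 7.50 at 4 h and 7.69, 7.72 and 7.80 at 8 h, so that arrays at 70 min and 4 h lay below the control without overlap. Col4a5 fell by 0.38 ± 0.07 at 70 min (limma adjusted p = 0.00184). Its difference of -0.24 ± 0.07 at 4 h did not pass (adjusted p = 0.0922), and passed when the brighter genes alone were tested (0.0459).

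Col4a1 and Col4a2 form the heterotrimer of nearly all basement membranes and share the divergent promoter shown above. Col4a1 read 8.79, 8.68 and 8.79 in control, 9.01, 8.85 and 8.88 at 70 min, 9.03, 8.88 and 8.80 at 4 h and 8.94, 8.83 and 8.96 at 8 h. Every treated array was above every control array. The differences of 0.16, 0.15 and 0.16, each ± 0.07, did not pass at any time (limma adjusted p = 0.168, 0.358 and 0.909), and that at 70 min passed with array medians as covariate (0.0425). Col4a2 read 8.51, 8.29 and 8.40 in control and 8.62, 8.45 and 8.48 at 70 min, overlapping, with differences of 0.12, 0.13 and 0.05 at the 3 times. Col4a3 and Col4a4 differed by -0.10 and 0.12 at 70 min and did not pass.

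The short-chain type VIII pair gave the one rise and the largest fall among the collagen calls against control. Col8a1 read 9.99, 9.87 and 9.99 in control and 10.28, 10.18 and 10.20 at 70 min. It read 9.99, 10.15 and 10.05 at 4 h and 9.83, 9.75 and 9.82 at 8 h, so that the 70 min arrays were the highest and the 8 h arrays the lowest. Col8a1 rose by 0.27 ± 0.06 at 70 min (limma adjusted p = 0.0041), a call that ended when arrays were centred on their medians (0.106).

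Col8a2, its partner, read 6.28, 6.44 and 5.88 in control and 5.96, 6.13 and 5.79 at 70 min, with overlap. At 4 h it read 5.41, 5.21 and 5.63, below every other array, and at 8 h 6.12, 6.16 and 6.13. Col8a2 fell by 0.78 ± 0.15 at 4 h, 1.72-fold (limma adjusted p = 0.00428), and the call held under all 17 alternative fits. The difference of -0.24 ± 0.15 at 70 min did not pass (adjusted p = 0.305). Col10a1, the remaining short-chain gene and a marker of hypertrophic cartilage, read from 4.34 to 5.06 over all arrays and passed in no comparison.

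At 4 h, Col8a2 and Col3a1 were the only 2 collagens to pass, both lower, against 3.85% of all genes, 2.08% higher and 1.77% lower. Both were among the 23 brighter collagens. Of the 9083 genes at or above the gene median, 351 were higher and 289 lower. Treated and control values did not overlap for 10 of 36 collagens (27.8%) and for 20.3% of all genes. The median collagen difference was -0.07, against 0.01 over all genes, with 25 of the 36 below 0, beside 8424 of all 18166 genes. The 13 dimmer collagens, none of them called, supplied 12 of the 25, and the 23 brighter ones, with a median of -0.04, the other 13.

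At 8 h no collagen passed by limma, and 5 of all 18166 genes did (0.0275%). An unadjusted p under 0.05 was found for 2 collagens, Col8a1 at -0.15 ± 0.06 (limma adjusted p = 0.906) and Col4a1 at 0.16 ± 0.07 (adjusted p = 0.909). The groups did not overlap for 5 collagens (13.9%), Col1a1, Col4a1, Col15a1, Col8a1 and Col27a1, and for 13.2% of all genes. For the genes that had fallen at 70 min, the 8 h differences had 95% intervals from -0.15 to 0.10 in Col14a1, from -0.08 to 0.17 in Col12a1, from -0.07 to 0.13 in Col5a2, from -0.20 to 0.11 in Col4a5 and from -0.32 to 0.08 in Col11a1. The Col11a1 interval ends next to the size of its 70 min fall, and the other 4 end short of theirs.

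**Figure D2:**
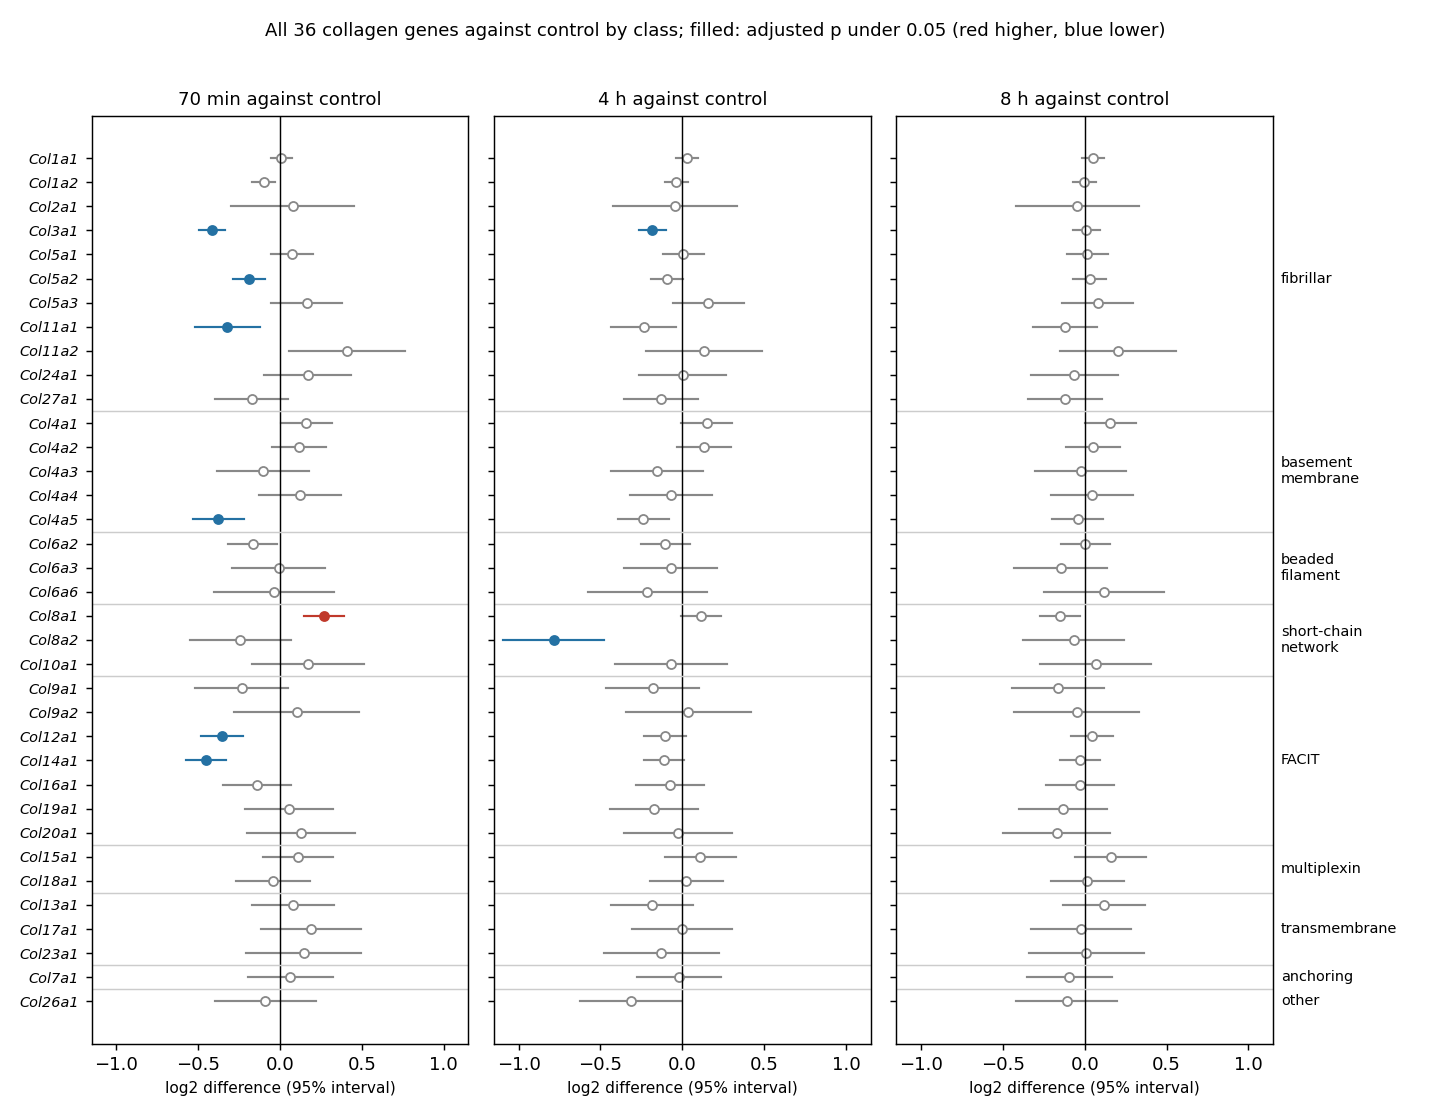
Log2 differences from control of all 36 collagen genes, grouped by class, at 70 min, 4 h and 8 h; points are limma estimates, lines their 95% intervals, and filled points passed an adjusted p under 0.05 (red higher, blue lower). Filled points number 7 at 70 min, 2 at 4 h and 0 at 8 h, and at 70 min they lie in the fibrillar, FACIT, basement membrane and short-chain classes.

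The remaining classes gave no call in any of the comparisons. Col6a2, a chain of the beaded filaments around cells, read 8.88, 8.81 and 8.86 in control and 8.76, 8.70 and 8.59 at 70 min, lower without overlap, and its difference of -0.17 ± 0.07 did not pass (limma adjusted p = 0.136). Col6a3 and Col6a6 differed by -0.01 and -0.04 at 70 min. The multiplexins Col15a1 and Col18a1, whose ends can be released as restin and endostatin, differed by 0.11 ± 0.10 and -0.04 ± 0.11 at 70 min and by 0.16 ± 0.10 and 0.02 ± 0.11 at 8 h. The transmembrane genes Col13a1, Col17a1 and Col23a1 differed by 0.08 to 0.19 at 70 min, the anchoring fibril gene Col7a1 by 0.06 and Col26a1 by -0.09. None of the 13 collagens whose mean lay below the median of all genes passed in any comparison. Their differences ran from -0.23 to 0.19 at 70 min with SEs of 0.12 to 0.17, so that changes of the size seen in Col3a1 or Col5a2 would be harder to detect in them.

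Comparisons between treated times use the same arrays as those with control and are given beside them. From 70 min to 4 h, Col14a1 rose by 0.34 ± 0.06 (limma adjusted p = 0.00103), Col3a1 by 0.23 ± 0.04 (0.000956) and Col12a1 by 0.24 ± 0.06 (0.0186), while Col8a2 fell by 0.54 ± 0.15 (0.0284). That is 3 of 36 higher and 1 lower, against 7.63% of all genes, 4.48% higher and 3.15% lower. All were among the 23 brighter collagens. Of the 9083 genes at or above the gene median, 742 were higher and 517 lower. The Col12a1 call ended without 70 min replicate 2 (0.0567) or 3 (0.0843) and without 4 h replicate 1 (0.0641) or 2 (0.0741), without the trend (0.0845), with the compared groups alone (0.0849) and with array medians as covariate (0.0699). That of Col3a1 ended without the trend (0.0862). The Col8a2 call ended without 70 min replicate 2 (0.131) and without 4 h replicate 1 (0.0711) or 2 (0.132), with the compared groups alone (0.0706) and with array medians as covariate (0.123). The count was 2 when 70 min replicate 2, 4 h replicate 1 or 4 h replicate 2 was left out, and 0 without the 3 arrays that stood apart, which again leaves 1 array at 70 min, where the 4 differences were 0.33, 0.18, 0.23 and -0.65 in the same order.

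From 4 h to 8 h, Col8a2 rose by 0.72 ± 0.15 (limma adjusted p = 0.00908) and Col3a1 by 0.19 ± 0.04 (0.00775), and Col8a1 fell by 0.26 ± 0.06 (0.0173). These 2 higher and 1 lower stood beside 3.51% of all genes, 1.97% higher and 1.54% lower. All were among the 23 brighter collagens. Of the 9083 genes at or above the gene median, 329 were higher and 262 lower. The Col8a2 call held under all 17 alternative fits. The Col3a1 call ended without the trend (0.237), with further quantile normalization (0.0581), with centred arrays (0.0675) and with the compared groups alone (0.0527). The Col8a1 call ended without the trend (0.147), with centred arrays (0.199), with the compared groups alone (0.0656), without 4 h replicate 2 (0.0895) or 8 h replicate 2 (0.11), and without the 3 arrays that stood apart (0.0561).

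Between 70 min and 8 h the differences were widest in Col14a1, Col3a1 and Col8a1. Col14a1 rose by 0.43 ± 0.06 (limma adjusted p = 5.92e-05), Col3a1 by 0.43 ± 0.04 (8.39e-07), Col12a1 by 0.40 ± 0.06 (0.0002), Col4a5 by 0.34 ± 0.07 (0.00428) and Col5a2 by 0.22 ± 0.05 (0.0033). Col8a1 fell by 0.42 ± 0.06 (8.69e-05). This gave 5 of 36 higher and 1 lower, against 16.0% of all genes, 9.56% higher and 6.43% lower. All were among the 23 brighter collagens. Of the 9083 genes at or above the gene median, 1586 were higher and 939 lower. Without the 3 arrays, with 1 array left at 70 min that is assumed to vary like the others, the Col4a5 and Col5a2 differences were 0.30 and 0.21 and did not pass (0.111 and 0.0997). The Col5a2 call also ended without the trend (0.0548). An F test over the 4 groups called 7 collagens, Col3a1, Col14a1, Col8a1, Col12a1, Col8a2, Col4a5 and Col5a2 (19.4%, against 15.3% of all genes), 4 of them without the 3 arrays, with Col11a1 outside the threshold (adjusted p = 0.0885).

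Chains of the same or neighbouring collagen type were also set against each other on the same array, which removes a shift of equal size in all genes. A shift that differs with brightness is not removed. At 70 min the median difference was -0.02 over genes at or above the gene median and 0.07 over those below it. The 5 pairs were chosen after their values had been seen, so the differences are given without a test. The Col3a1 value minus the Col1a1 value ran from -0.81 to -0.79 in control arrays and from -1.26 to -1.20 at 70 min, and its mean was lower than in control by 0.42 at 70 min, 0.21 at 4 h and 0.04 at 8 h. For Col5a2 minus Col5a1, control arrays ran from 1.08 to 1.14 and 70 min arrays from 0.83 to 0.87. Those pairs did not overlap between control and 70 min.

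The type IV pair, Col4a5 minus Col4a1, ran from -1.04 to -0.91 in control, from -1.57 to -1.43 at 70 min, from -1.47 to -1.30 at 4 h and from -1.26 to -1.11 at 8 h. The mean was 0.54, 0.39 and 0.20 below control at the 3 times. Col8a2 minus Col8a1 ran from -4.11 to -3.42 in control and from -4.94 to -4.42 at 4 h, 0.90 lower on average, while the 8 h arrays, from -3.72 to -3.59, lay within the control range. Col1a2 minus Col1a1 shifted less, by 0.11 at 70 min, 0.07 at 4 h and 0.06 at 8 h, downwards at each time. In this pair, in Col4a5 minus Col4a1 and in Col3a1 minus Col1a1, every treated array lay below every control array.

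**Figure D3:**
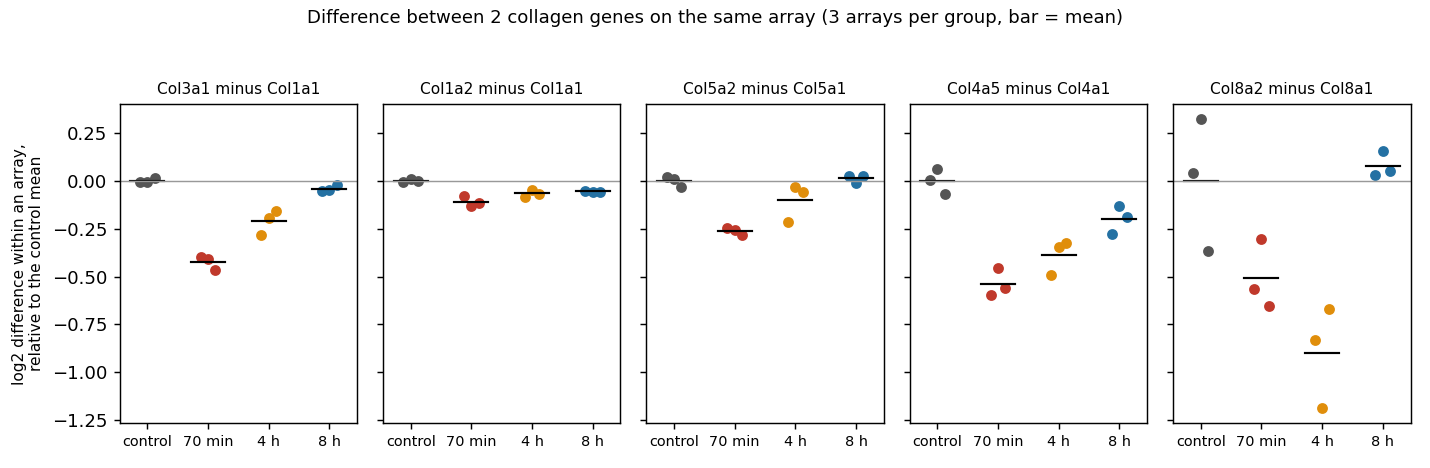
Log2 difference between both genes of a pair on the same array, relative to the mean of the control arrays, for 5 pairs; points are arrays, 3 per group, and bars are group means. At 70 min the means lie 0.42, 0.11, 0.26, 0.54 and 0.51 below control from left to right, and at 4 h the Col8a2 and Col8a1 pair lies 0.90 below.

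Related genes were read from lists chosen with earlier results of these data known. They are described by counts against the same background of 14.6% at 70 min and 3.85% at 4 h. Most members lay at or above the gene median, except among the endothelial, macrophage and leukocyte, and cardiomyocyte markers. Of the 9083 genes at or above it, 1030 were higher and 1260 lower at 70 min, and 351 and 289 at 4 h. Both are larger shares than over all genes. None of 16 genes of procollagen hydroxylation and folding passed at 70 min, when their median difference was -0.02. Serpinh1, the collagen-specific chaperone HSP47, differed by -0.00 ± 0.05, and P4ha1, a catalytic subunit of prolyl 4-hydroxylase, by 0.07 ± 0.05 (limma adjusted p = 0.969 and 0.381). At 4 h 1 of the 16 passed: P4ha3, another catalytic subunit, fell by 0.24 ± 0.05 (adjusted p = 0.0222), a call that ended under 8 of the 17 alternative fits (up to 0.181), among them without any 1 of control replicates 1, 2 and 3 (0.101, 0.0648 and 0.0729) or 4 h replicates 2 and 3 (0.0547 and 0.0924).

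Of 9 genes for export and cleavage of procollagen, 3 fell and 1 rose at 70 min. Adamts3, a proteinase that removes the amino-terminal propeptide of procollagen, read 5.89 ± 0.10 (SD, n = 3) in control and 5.01 ± 0.08 at 70 min. This fall of 0.88 ± 0.12 (SE, limma adjusted p = 8.8e-05) held under each of the 16 alternative fits run for it. The fit of the brighter genes alone did not include Adamts3. Bmp1, which removes the carboxy-terminal propeptides of fibrillar collagens, fell by 0.45 ± 0.08 at 70 min (0.000912) and by 0.32 ± 0.08 at 4 h (0.0289). Pcolce, which enhances that cleavage, fell by 0.22 ± 0.07 (0.0474), whereas Tll1, a proteinase related to Bmp1, rose by 0.38 ± 0.08 (0.00274). Without the 3 arrays that stood apart the 70 min calls of Bmp1 and Tll1 ended (0.0538 and 0.0754). The Pcolce call ended under 8 of the 17 alternative fits (up to 0.376), among them without any 1 control array (0.077, 0.153 and 0.109 in replicate order) or 70 min replicate 3 (0.248). The 4 h call of Bmp1 ended under 9 (up to 0.152), among them without any 1 control array (0.0941, 0.127 and 0.0811), 4 h replicate 2 (0.0893) or 4 h replicate 3 (0.119). At 8 h no gene of any of the lists passed.

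Among 6 crosslinking enzymes, Loxl4 rose by 0.32 ± 0.10 at 70 min (limma adjusted p = 0.0352), which ended under 8 of the 17 alternative fits (up to 0.166), among them without any 1 control replicate (0.0542, 0.112 and 0.107) and without 70 min replicate 1 or 3 (0.0673 and 0.166). Lox differed by -0.12 ± 0.06 and did not pass (0.192). Of 9 collagen receptors and uptake genes, Itga11, the integrin chain that binds fibrillar collagen, fell by 0.42 ± 0.07 (0.000431), and Ddr2, a receptor kinase activated by fibrillar collagen, by 0.28 ± 0.09 (0.0393). Itgb1, the shared beta chain of the collagen-binding integrins, rose by 0.23 ± 0.05 (0.00239), a call that ended without the trend (0.0736), with centred arrays (0.0506) and without the 3 arrays that stood apart (0.105). The Itga11 call at 70 min held under each of the 17 alternative fits. At 4 h Itga11 fell by 0.29 ± 0.07 (0.0252), which ended under 9 of the 17, among them without any 1 control replicate (0.143, 0.0589 and 0.0607) and without 4 h replicate 2 or 3 (0.0803 and 0.108). The Ddr2 call ended under 8 (up to 0.518), among them without any 1 control replicate (0.121, 0.0554 and 0.129) and without 70 min replicate 2 or 3 (0.165 and 0.0892).

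Of 20 TGF-beta pathway genes, 5 rose and 4 fell at 70 min. Tgfb3, a ligand, read 10.45 ± 0.07 (SD, n = 3) in control and 11.26 ± 0.01 at 70 min, a rise of 0.81 ± 0.05 (SE; limma adjusted p = 1.42e-08). Tgfb1 rose by 0.37 ± 0.07 (0.00137), while Tgfb2 differed by 0.02 ± 0.06 (0.885). Among negative regulators of the pathway, 2 rose, Smurf1, a ubiquitin ligase, by 0.57 ± 0.08 (0.000163) and Pmepa1 by 0.46 ± 0.07 (0.00015). Other negative regulators fell, the corepressor Tgif1 by 0.45 ± 0.08 (0.000958) and the pseudoreceptor Bambi by 0.40 ± 0.09 (0.00406). Ltbp3, which tethers latent ligand, fell by 0.27 ± 0.06 (0.00413), and Ccn2, a well known TGF-beta target, by 0.21 ± 0.05 (0.0048). Ltbp1 rose by 0.18 ± 0.05 (0.033), and its call ended under 10 of the 17 alternative fits, among them when any 1 array of either group was left out (adjusted p from 0.0548 to 0.11). Without the 3 arrays that stood apart, the Bambi difference was -0.23 and did not pass (0.266), and the calls of Tgfb1, Ltbp3 and Ccn2 also ended (0.0669, 0.0734 and 0.102), that of Ccn2 without the trend too (0.0944). The calls of Tgfb3, Smurf1, Pmepa1 and Tgif1 held under all 17.

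At 4 h, 1 gene of the list rose and 5 fell. Tgif1 fell by 0.55 ± 0.08 (limma adjusted p = 0.00077), Smad7, an inhibitory Smad, by 0.54 ± 0.13 (0.0283), Tgfb2 by 0.35 ± 0.06 (0.00124), Pmepa1 by 0.28 ± 0.07 (0.027) and Ccn2 by 0.25 ± 0.05 (0.00381). Tgfb3 rose by 0.21 ± 0.05 (0.0249). The Tgif1 call held under each of the 17 alternative fits, that of Tgfb2 ended without the trend (0.0528) and that of Ccn2 without the trend (0.127) or with centred arrays (0.0761). Those of Smad7, Pmepa1 and Tgfb3 ended under 8, 8 and 7 of the fits. With single arrays left out, Smad7 did not pass without control replicate 2 or 3 or 4 h replicate 1 or 3 (up to 0.151). Pmepa1 did not without any 1 control replicate or 4 h replicate 1 or 2 (up to 0.128), nor Tgfb3 without control replicate 2 or 4 h replicate 1 or 2 (up to 0.146).

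Of 7 other matrix glycoproteins none passed at 70 min, Fn1 (fibronectin) differing by 0.07 ± 0.03 (limma adjusted p = 0.154), and at 4 h Eln, elastin, fell by 0.27 ± 0.07 (0.0364), a call that ended under 8 of the 17 alternative fits (up to 0.189), among them without any 1 control replicate (0.0708, 0.129 and 0.14) or 4 h replicates 2 and 3 (0.113 and 0.142). Among 8 other basement membrane genes, the laminin chains Lama4 and Lamc1 rose by 0.32 ± 0.08 and 0.25 ± 0.05 at 70 min (0.0131 and 0.00442). The Lama4 call ended without control replicate 1 (0.0716) or 70 min replicate 3 (0.0714). Both laminin calls ended with centred arrays (0.0957 and 0.121) and without the 3 arrays that stood apart (0.22 and 0.0676), and that of Lamc1 without the trend (0.0564).

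**Figure D4:**
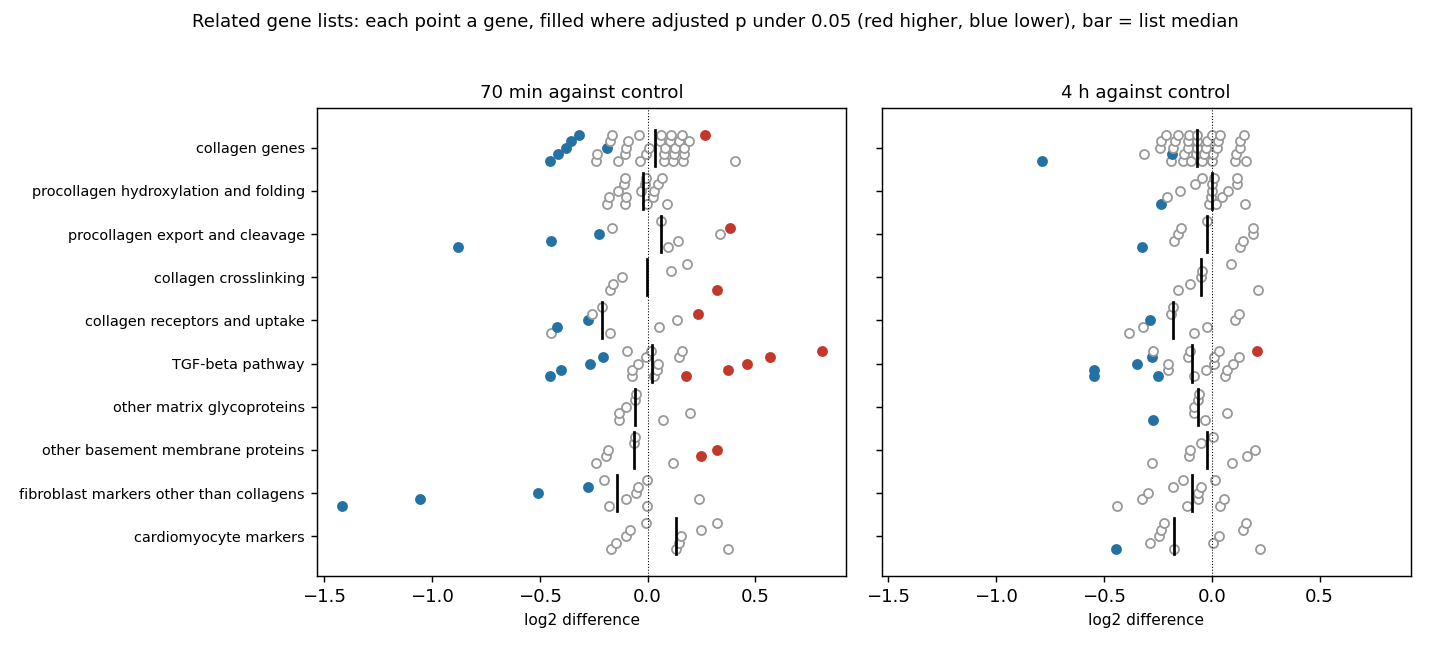
Log2 differences from control at 70 min and 4 h for the collagen genes and 9 related or marker lists; each point is a gene, filled where its adjusted p was under 0.05 (red higher, blue lower), and bars are list medians. At 70 min the fibroblast markers hold the largest falls, Lum at -1.42 and Dcn at -1.05, and the TGF-beta list holds the largest rise, Tgfb3 at 0.81.

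Of the 12 fibroblast markers, 4 fell at 70 min and none rose. Lum, a proteoglycan that binds collagen fibrils, fell by 1.42 ± 0.10 (limma adjusted p = 6.3e-08), and Dcn, another, fell by 1.05 ± 0.17 (0.000433). Mmp2, a gelatinase, fell by 0.51 ± 0.08 (0.000505), and Ddr2 is the receptor named above. The mean over the 12 markers ran from 7.83 to 7.93 at 4 h and from 7.90 to 8.09 at 8 h, so that the 4 h arrays lay below the control range of 7.96 to 8.03 and the 8 h arrays overlapped it. The 11 cardiomyocyte markers averaged 5.04 to 5.33 at 70 min with none called, and 4.98 to 5.16 at 4 h, when Pln fell by 0.44 ± 0.10 (limma adjusted p = 0.0132). Among the 7 endothelial markers Tek fell by 0.88 ± 0.13 at 70 min (0.00013) and Egfl7 rose by 0.43 ± 0.13 (0.0286), among the 8 smooth muscle and pericyte markers Tagln rose by 0.13 ± 0.04 at 70 min (0.0314) and Pdgfrb fell by 0.49 ± 0.06 at 4 h (6.14e-05), and no macrophage marker passed. The calls of Pln, Egfl7 and Tagln ended under 5, 7 and 8 of the 17 alternative fits. With single arrays left out, Pln did not pass without control replicate 1 or 4 h replicate 3 (0.0923 and 0.0556), nor Egfl7 without any 1 control replicate or 70 min replicate 2 or 3 (up to 0.133), nor Tagln without control replicate 1 or 2 or 70 min replicate 1 or 2 (up to 0.131). The calls of Lum, Dcn, Mmp2 and Pdgfrb held under all 17. That of Tek held under the 16 run for it, as the fit of the brighter genes alone did not include Tek.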

How the data were processed

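RNA from 12 samples was amplified by a whole-transcript protocol for arrays of a single colour, per the labels. The submitters' processing notes name RMA and Affymetrix Expression Console 1.3.1.187, and the authors deposited 36685 probe values per array. The unit is not stated; the deposited values, 1.19 to 13.63, were taken as log2 expression. RMA equalises array distributions, so a change in total RNA per cell is not seen. No source used here gives a genome build or filters.

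Of 19086 probes in the platform table, 18511 carried 1 symbol, 575 carried several and were not used, and 17599 others were unlisted; 18394 matched RefSeq GRCr8 identifiers, with 0 symbols changed. The probe of highest mean was kept per gene, leaving 18166 genes. The members, classes and lists were chosen with earlier results of these data known. Any collagen could be named, with full statistics for those called and for the common types; of the lists, up to 5 called members per direction and Serpinh1, Lox, P4ha1, Ccn2, Fn1, Tgfb1, Tgfb2 and Tgfb3 were named.

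One linear model of the 4 groups was fitted over the 12 arrays in limma 3.58.1 (R 4.3.3, eBayes with trend), with two-sided tests, Benjamini-Hochberg adjustment over all genes of each comparison and a threshold of 0.05. The median SE of a log2 difference was 0.131; precision is limited by having 3 arrays a group. The calculation was tested on simulated data. Alternatives were a replicate block, other moderation, array weights, 2 normalizations, brighter genes, the mean of probes, compared groups alone, a 1.5-fold minimum and leaving out arrays; leaving out the 3 arrays of highest median and the array median as covariate were chosen after seeing the data. Promoter windows were searched for motifs with Python 3.11.15, and figures drawn with matplotlib 3.10.9.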

Additional observations from a re-analysis of the deposited data

Results flagged for a closer look

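A set of 13 results stood out because a collagen gene's difference from control was not the same at a pair of treated times, by limma's test between those times (log2 differences, later minus earlier; each pair of times shares its control arrays, so this is the difference between the treated groups). Between 70 min and 4 h these were Col14a1 at 0.34, Col12a1 at 0.24, Col3a1 at 0.23 and Col8a2 at -0.54. Between 4 h and 8 h they were Col8a2 at 0.72, Col3a1 at 0.19 and Col8a1 at -0.26. Between 70 min and 8 h they were Col14a1 at 0.43, Col3a1 at 0.43, Col12a1 at 0.40, Col4a5 at 0.34, Col5a2 at 0.22 and Col8a1 at -0.42. Col3a1 is the gene present in all 3 sets, with its lowest values at 70 min and values between those and the control at 4 h. Col8a1 and Col8a2 moved in opposite directions between 4 h and 8 h. Adjusted p-values and the arrays on which each call rests stand with the results above.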

How the results depend on the processing

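Of 22 collagen calls, 0 reversed under the alternatives run and 20 ended under a 1.5-fold minimum. Under the 17 other alternatives 9 held throughout and 13 ended under at least 1, and 5 results passed only under an alternative. At 70 min the count was 7 and became 0 with a fold of at least 1.5 and 4 without the 3 arrays of highest median (6 to 9 with single arrays left out). At 4 h it was 2 and became 1 with the fold minimum, without the trend or with centred arrays (1 to 2 with single arrays left out; 1 without control replicate 3 or 4 h replicate 1). At 8 h it was 0 throughout (0 to 0). From 70 min to 4 h it was 4 and became 0 with the fold minimum or without the 3 arrays, and 2 without the trend, with the compared groups alone or with the array median as covariate (2 to 4). From 4 h to 8 h it was 3 and became 1 with the fold minimum, without the trend, with centred arrays or with the compared groups alone (2 to 3). From 70 min to 8 h it was 6 and became 0 with the fold minimum (6 to 7). The F test's 7 became 4 without the 3 arrays (7 to 8). With the replicate number as a block the counts were 8, 2, 0, 4, 3, 6 and 7 in that order. With group means removed, 18 correlations of same-numbered arrays ran from -0.32 to 0.24, with 5 over 0.1. From 3 arrays per group they cannot tell whether the numbers pair the samples. Of 37 calls of related genes against control, 32 ended under the fold minimum. Under the 17 others, of which 16 were run for Adamts3 and Tek, 12 held throughout, 25 ended under at least 1 and 0 reversed. Causes of these changes were not tested; a setting with fewer arrays has less information by construction. With 3 arrays per group, 13 dim collagens had SEs of 0.12 to 0.17, which limits what could be called in them.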
